A study of Mus musculus with 8 samples.

Results

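Transcripts of 34 lysosomal genes were examined in pancreatic islets of mice aged 17 months. The genes were chosen by name, from what their proteins are known to do, but with earlier results of these data known. They comprise 3 transcription factors of the MiT/TFE family, 7 lysosomal membrane proteins, 6 cathepsins and other peptidases and 8 glycosidases. The others are 5 enzymes or activators of sphingolipid breakdown, 3 proteins of cholesterol and lipid handling and 2 sulfatases. All 34 were found among the 53012 genes of the table, and all 34 were among the 15474 genes with enough counts to be tested. Glb1, the gene of lysosomal acid β-galactosidase, is part of the set because the activity of its enzyme at a suboptimal pH is widely used to stain senescent cells.

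Islets came from 4 βIgf1r and 4 βIgf1rKD mice, and each mouse gave its own RNA-seq library. Mice of both groups were Igf1r flox/flox, with exon 3 of the receptor gene between loxP sites. The βIgf1rKD mice were Ins1-CreERT2+/-, a Cre that tamoxifen activates in insulin-producing cells, while the islets also hold other cells, and received tamoxifen in corn oil at 0.075 mg/g by 5 daily intraperitoneal injections, whereas the βIgf1r mice were Ins1-CreERT2-/- and received corn oil. Islets were isolated with collagenase 7 days after the last injection. Both groups held males and females, and the sex of each mouse is not marked. The Xist transcript, read here for sex, was above 1000 counts in 1 βIgf1r and 3 βIgf1rKD mice, so the groups were not balanced in it. The control mice had neither the recombinase nor tamoxifen, so that effects of Cre, of tamoxifen and of Igf1r loss cannot be told apart.

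Lysosomes are acidic organelles in which hydrolases break down proteins, glycans, lipids and nucleic acids that arrive by endocytosis and autophagy. TFEB, TFE3 and MITF enter the nucleus when the nutrient-sensing kinase complex mTORC1 at the lysosomal surface is inactive, and bind E-box motifs in the promoters of lysosomal genes. In β-cells lysosomes also degrade surplus insulin granules, and insulin and IGF1 signalling feeds into mTORC1.

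Total counts per mouse lay between 21633925 and 42391106, and each of the 34 genes had at least 87 counts in every mouse. Levels are given as CPM, counts scaled to library size with TMM factors, differences as log2 fold changes of βIgf1rKD over βIgf1r islets, and p-values are from the quasi-likelihood test of edgeR, adjusted by Benjamini-Hochberg over all 15474 genes. Nothing in the sources says whether mice shared a litter or a day of isolation, so the p-values measure the spread between these 8 mice. The RNA is that of whole islet preparations, in which fewer cells of a type and less RNA per cell cannot be told apart. Islet endocrine markers made up 19.1% to 26.2% of the counts of a βIgf1r mouse (median 24.1%) and 13.2% to 26.2% of those of a βIgf1rKD mouse (median 16.2%). Of the 10 markers 2 had a log2 fold change above 0 and 8 below, with a median of -0.13. Ins1 was at 41090.0 ± 7908 CPM and 21700.0 ± 4567 CPM (SD, n = 4). It was the only 1 of the 10 without overlap or at an unadjusted p under 0.05 by edgeR. The log2 fold change of Ins2 was -0.076. All 14 acinar markers had a log2 fold change above 0 (median 0.88, 0 at an unadjusted p under 0.05), and their share was 2.49% to 18.3% in βIgf1r and 5.23% to 20.8% in βIgf1rKD mice. All 12 endothelial markers were below 0 (median -0.28), 6 of them at an unadjusted p under 0.05 and 5 without overlap between the groups. Among all genes tested 4.12% had an unadjusted p under 0.05 and 2.22% were without overlap. The part of these shifts in the results for lysosomal genes was not tested beyond the acinar and macrophage covariates. Igf1r itself was at 53.6 ± 7.21 CPM in βIgf1r and 50.7 ± 4.996 CPM in βIgf1rKD islets (SD, n = 4), and its log2 fold change was -0.080 (standard error, SE, 0.11, unadjusted p = 0.483 by edgeR). Counts cover the whole gene, so they do not show whether exon 3 was removed.

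Promoters were read first, since the E-box is the sequence that the 3 factors are known to bind. RefSeq windows on GRCm38.p6, from 250 bases before to 50 bases after the transcription start, were found for 31 of the 34 members, and Npc1, Ctsb and Asah1 had none. The core E-box CACGTG is its own reverse complement and so is found on both strands at once. It was present in a window of 11 of the 31 members (35.5%), against 8.09% of 27025 genes with a window and 11.2% of the 11420 tested genes with a window. The longer form TCACGTGA, which contains the core, was present in 5 members (16.1%), namely Cln3, Ctsa, Ctsd, Gla and Mcoln1, against 1.12% of all genes and 2.05% of tested genes with a window.

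The stretches below are the promoter parts of the 5 members with the longer form, and of Lamp1 and Glb1, 2 members that the results return to. Each is written 5′ to 3′ on the strand of its gene, with the core E-box in capitals.
Lamp1: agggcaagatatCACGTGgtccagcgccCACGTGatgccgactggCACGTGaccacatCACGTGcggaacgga
Glb1: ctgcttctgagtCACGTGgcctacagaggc
Mcoln1: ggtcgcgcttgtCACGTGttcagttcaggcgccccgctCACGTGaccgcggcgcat
Ctsa: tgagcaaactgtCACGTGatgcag
Ctsd: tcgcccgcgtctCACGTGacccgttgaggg
Cln3: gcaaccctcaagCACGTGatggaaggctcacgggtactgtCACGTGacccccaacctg
Gla: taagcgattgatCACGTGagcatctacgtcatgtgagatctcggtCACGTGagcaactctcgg

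On GRCm38.p6 the Lamp1 stretch lies at chr8:13159088-13159160 on the plus strand and ends at the base before the transcription start. The Glb1 stretch lies at chr9:114401018-114401047 (plus), that of Mcoln1 at chr8:3500436-3500491 (plus) and that of Ctsa at chr2:164833749-164833772 (plus). Those of Ctsd, at chr7:142387908-142387937, of Cln3, at chr7:126583340-126583397, and of Gla, at chrX:134601182-134601244, are on the minus strand. Lamp1 had 4 copies of the core, which begin 61, 45, 28 and 15 bases before the start, the most of any member. Ctsa was the only member with a copy after the start, at base 6, besides the one shown. In all there were 19 copies, 11 of them within 100 bases before a start, and 6 members had at least 2 copies. No window of Tfeb, Tfe3 or Mitf held the core. A match is a stretch of letters and was not tested for binding.

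**Figure D1:**
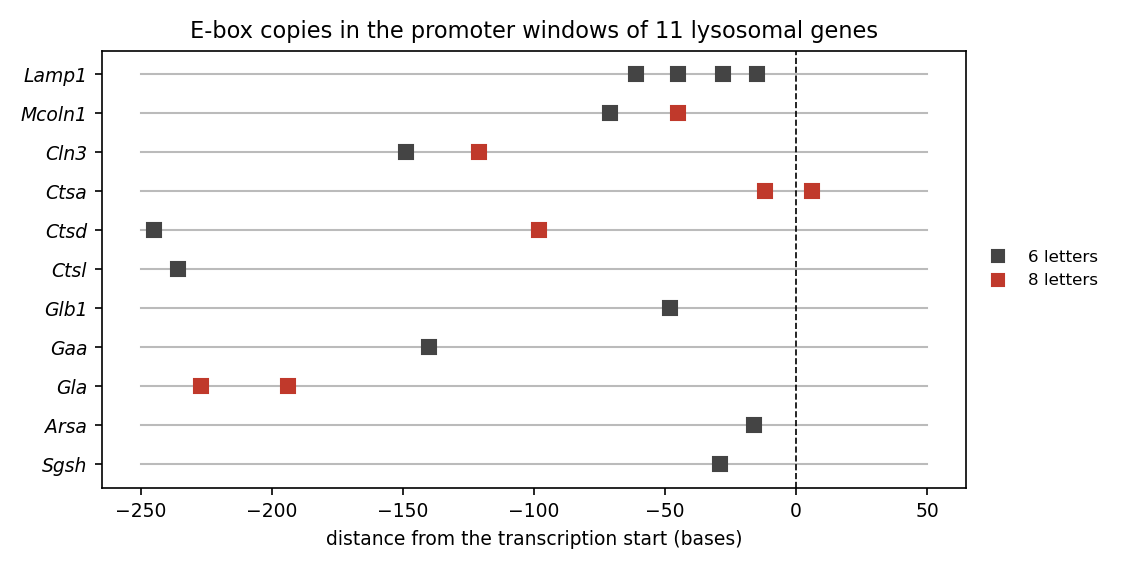
Position of each copy of the core E-box in the promoter windows of the 11 lysosomal genes that hold one, as the distance of its first base from the transcription start in bases (dashed line at the start). Red squares mark copies in the longer 8-letter form. Of the 19 copies, 11 lie within 100 bases before the start, and Lamp1 has 4 in a row.

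The other lysosomal gene lists held the core in shares from 21.7% of 23 further hydrolases to 42.9% of 14 sorting genes with a window. None of the windows of the 6 lists of cell type markers held it, but these lists had only 4 to 13 genes with a window each. The longer form was present in 28.6% of the sorting genes, 19% of 21 further membrane proteins and 18.8% of 16 V-ATPase subunits. It was in 8.7% of the further hydrolases and in 0 of 24 nutrient sensing genes with a window. Log2 fold changes ran from -0.049 to 0.225 in members with the core and from -0.158 to 0.241 in those with a window and no core. Among the 11 members with it 9 had a log2 fold change above 0, with a median of 0.068. Among the 20 with a window and no core 14 did, with a median of 0.064.

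The levels of the members were then set side by side per transcript length, as TPM (counts per length, scaled to the same total in every mouse, from the longest annotated transcript of each gene, over all 8 mice). Psap, whose product is cut into the saposins that activate sphingolipid hydrolases, stood highest at 750.5 ± 186 TPM (SD, n = 8), followed by the membrane glycoprotein Lamp1 at 465 ± 91.5 TPM and the aspartic protease Ctsd at 232 ± 37.8 TPM. The tetraspanin Cd63 at 160.1 ± 34.4 TPM and the hexosaminidase subunit Hexa at 152.6 ± 33.5 TPM came next and did not differ beyond their spread. Ids, at 84.6 ± 23.8 TPM, was the higher of the sulfatases, and Npc2, at 73.6 ± 15.4 TPM, the highest of the cholesterol and lipid group. The lowest members were the transcription factors Tfeb at 3.31 ± 0.693 TPM and Mitf at 2.27 ± 0.613 TPM and the acid lipase Lipa at 4.58 ± 1.099 TPM, with Tfe3 at 7.74 ± 1.40 TPM. With the mean instead of the longest transcript length, the order of the members changed in part. Psap, at 497 TPM, and Lamp1, at 479 TPM, were still the highest, Cd63 (250.2 TPM) passed Ctsd (210.3 TPM), and Gaa (173 TPM) passed Hexa (100.4 TPM) as the highest glycosidase. Ctsa went from 33.98 to 88.2 TPM, and Ctsl, at 106 TPM, was close to Ctsb at 107 TPM. Tfeb and Mitf were still the lowest, followed by Gla (5.50 TPM) in place of Lipa (5.68 TPM). Together the members took 0.421% to 0.611% of the counts of a βIgf1r mouse and 0.405% to 0.592% of a βIgf1rKD mouse, and these ranges overlap.

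**Figure D2:**
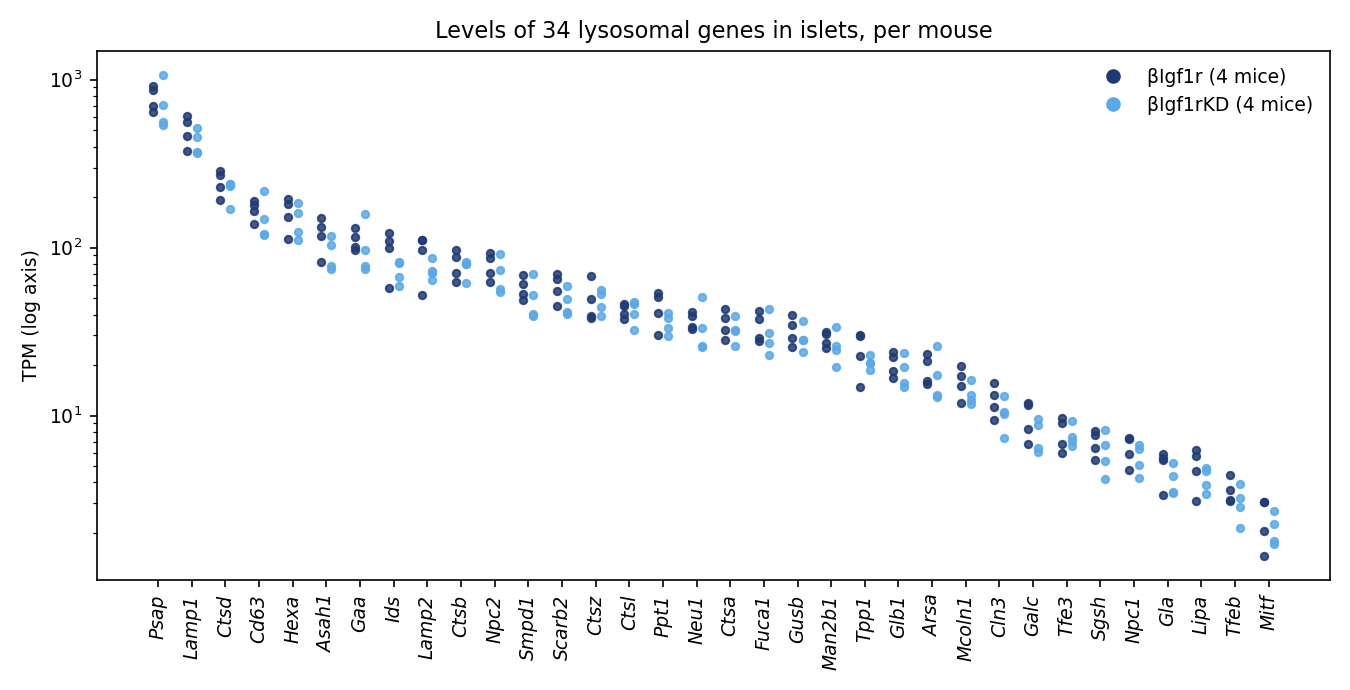
Level of each of the 34 lysosomal genes in each mouse, in TPM on a log axis, in order of the mean of the 8 mice. Dark points are the 4 βIgf1r and light points the 4 βIgf1rKD mice. The genes run from Psap at a mean of 750.5 to Mitf at 2.27 TPM, and the points of the groups overlap for every gene. TPM is not TMM-scaled.

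Across the set, the groups differed little. With TMM scaling 25 members had a log2 fold change above 0 and 9 below, with a median of 0.064, beside 52.3% of all genes tested above 0 and a median of 0.0080, but when counts were scaled by library totals without TMM only 2 of the 34 members were above 0, with a median of -0.14. That scaling moved the median of all genes to -0.19, and relative to it the members lay 0.053 higher, against 0.056 with TMM. Values below are with TMM.

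At an unadjusted p under 0.05 there was 1 member, Tfe3, which was higher, and no member was lower. Among all genes tested 4.12% reached that threshold, 2.23% higher and 1.89% lower, so the members' count was near the background. At an adjusted p under 0.05 there were 0 members by edgeR, with a smallest adjusted p of 0.987, and 0 by DESeq2 and limma-voom, which had 1 and 0 members at an unadjusted p under 0.05. The share of all genes at an adjusted p under 0.05 was 0% by edgeR. For 0 of the 34 members did all mice of a group lie above all mice of the other, against 2.22% of all genes. The median size of the difference was 0.073 on the log2 scale for the members and 0.10 for all genes, and for 23 of the 34 it was smaller than its own SE. The 95% intervals of 32 members lay within 0.5 of 0 on the log2 scale. The exceptions were Ids, whose interval reached down to -0.50, and Ctsl, whose interval reached up to 0.53. Members varied between mice of a group with a median SD of log2 CPM of 0.11 in βIgf1r and 0.13 in βIgf1rKD mice, beside 0.19 and 0.20 for all genes tested. All genes include many with fewer counts, and the spread was about as low in V-ATPase subunits (0.10 and 0.11).

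**Figure D3:**
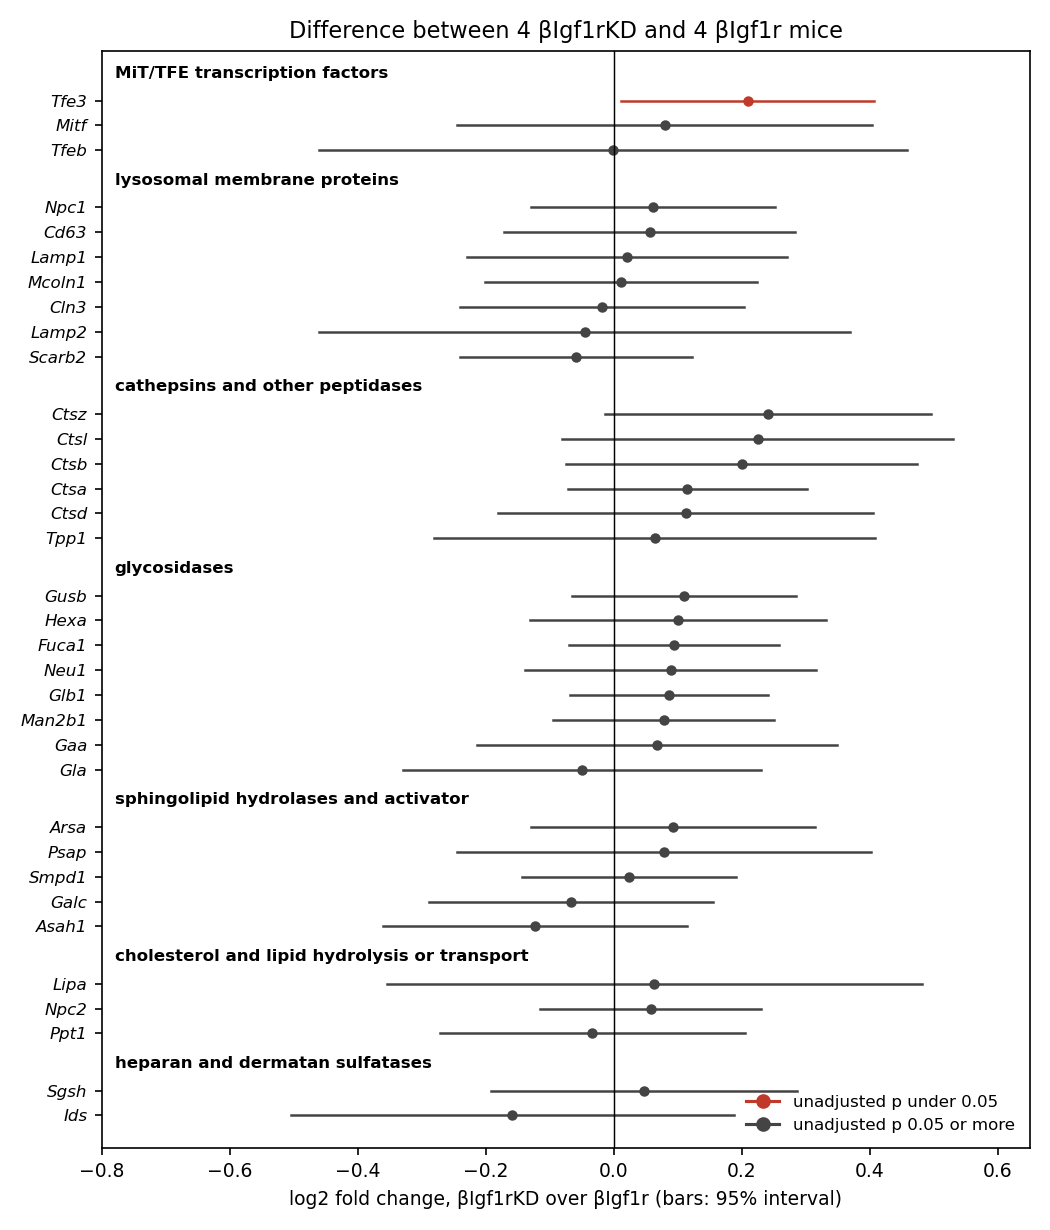
Log2 fold change of each lysosomal gene in βIgf1rKD over βIgf1r islets (n = 4 mice a group), by role, with bars for the 95% interval from edgeR. Red marks an unadjusted p under 0.05, reached by Tfe3 at 0.21. All other intervals include 0.

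The transcription factors come first, since the family is known to bind promoters of lysosomal genes. Whether they act on the other members in these islets was not tested. Tfe3 (ENSMUSG00000000134), on the X chromosome (chrX:7762560-7775202, plus strand, GRCm38), was measured at 29.8, 27.9, 25.9 and 26.9 CPM in βIgf1r mice M148, M151, M152 and M153. In βIgf1rKD mice M145, M146, M149 and M150 it was at 36.5, 30.1, 31.6 and 29.8 CPM. Of the βIgf1rKD mice 3 lay above every βIgf1r mouse, and M150 lay just under M148. The means were 27.65 ± 1.67 and 32.0 ± 3.12 CPM (SD, n = 4), and the log2 fold change was 0.21 (SE 0.088, 95% interval 0.011 to 0.41, unadjusted p = 0.0407, adjusted p = 0.987 by edgeR). Without M145, the highest mouse, the log2 fold change was 0.14 (unadjusted p = 0.126 by edgeR), and without TMM factors it was -0.012 (unadjusted p = 0.957).

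The members on the X chromosome number 4, Tfe3, Lamp2, Gla and Ids, and of these 1 was higher and 3 lower in βIgf1rKD islets. The Xist transcript was above 1000 counts in 1 βIgf1r and 3 βIgf1rKD mice (270.1 to 411 CPM, against 1.22 to 6.71 CPM in the others). The groups were thus not balanced in Xist, which bears on every gene and not only on those of the X chromosome. Group and sex were not told apart beyond fits with Xist as a covariate. With Xist as a covariate Tfe3 had a log2 fold change of 0.19 (unadjusted p = 0.0861 by edgeR).

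Tfeb (ENSMUSG00000023990, chr17:47737030-47792419, plus strand), the best known of the family as a regulator of lysosomal genes, was at 3.51, 5.06, 5.80 and 4.597 CPM in βIgf1r mice, in the order given for Tfe3. It was at 6.22, 4.71, 3.79 and 4.24 CPM in βIgf1rKD mice. The groups covered nearly the same range, and both means were 4.74 CPM (log2 fold change -0.0013, SE 0.20, 95% interval -0.46 to 0.46). Mitf (chr6:97807052-98021349, plus strand), the remaining member of the family, was at 7.21, 7.35, 4.88 and 6.30 CPM in βIgf1r and 7.16, 6.71, 6.399 and 6.96 CPM in βIgf1rKD mice. Its βIgf1rKD mice all lay inside the βIgf1r range, with a log2 fold change of 0.080 (SE 0.14). Within a library, the log2 ratio of Tfe3 to Tfeb was 2.55 ± 0.38 in βIgf1r and 2.76 ± 0.21 in βIgf1rKD islets (SD, n = 4), a difference of 0.21 (p = 0.4 by a two-sided exact permutation test, and p = 0.6 when adjusted for the 3 ratios).

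**Figure D4:**
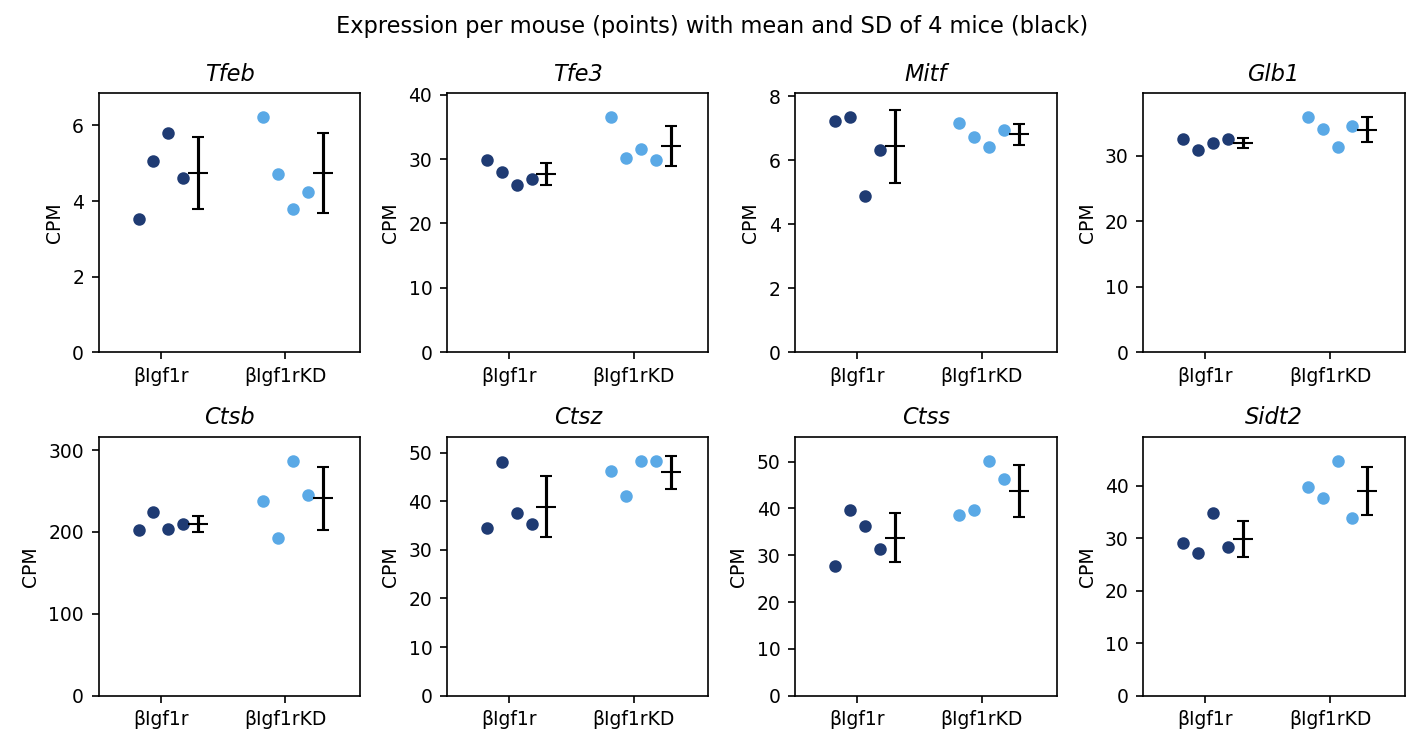
CPM in each mouse for the MiT/TFE factors Tfeb, Tfe3 and Mitf, for Glb1, for the cathepsins Ctsb, Ctsz and Ctss and for the membrane protein Sidt2. Points are mice, in the order M148, M151, M152, M153 (βIgf1r, dark) and M145, M146, M149, M150 (βIgf1rKD, light), and black bars give the mean and SD of 4. For none of the 8 genes are the groups fully apart.

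Lysosomal membrane proteins were close to each other in both groups. Of the 7, 4 had a log2 fold change above 0 and 3 below, from -0.059 for Scarb2, the receptor that carries β-glucocerebrosidase to lysosomes, to 0.062 for Npc1, and each difference was smaller than its SE. Lamp1 (chr8:13159161-13175338, plus strand), the most abundant of them and the member with 4 E-boxes, was at 662, 608, 574 and 644 CPM in βIgf1r and 677, 586, 620.2 and 643 CPM in βIgf1rKD mice. The lowest mouse of each group was M152 or M146, and the other mice intermixed. Its log2 fold change was 0.021 (SE 0.11, 95% interval -0.23 to 0.27). Npc1 (chr18:12189692-12236400, minus strand), which exports cholesterol across the lysosomal membrane, was at 20.4, 20.8, 18.8 and 21.2 CPM in βIgf1r and 20.2, 19.6, 22.1 and 23.0 CPM in βIgf1rKD mice (log2 fold change 0.062, SE 0.085). For Npc1 M149 and M150 lay above every βIgf1r mouse, and the other βIgf1rKD mice lay inside the βIgf1r range. The remaining log2 fold changes were 0.056 for Cd63, 0.011 for the calcium channel Mcoln1, -0.018 for Cln3, the protein lost in juvenile Batten disease, and -0.045 for Lamp2, which serves chaperone-mediated autophagy in one of its forms.

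The cathepsins and other peptidases had the largest differences of the role groups, and none of the 6 passed the test. All 6 had a log2 fold change above 0 with TMM scaling, with a median of 0.16, and 2 of the 6, Ctsz and Ctsl, also did by library totals. Ctsz (chr2:174427493-174439039, minus strand), a carboxypeptidase, was at 34.5, 48.1, 37.6 and 35.4 CPM in βIgf1r and 46.1, 41.1, 48.2 and 48.4 CPM in βIgf1rKD mice. M151 stood with the βIgf1rKD mice. The log2 fold change was 0.24 (SE 0.11, 95% interval -0.013 to 0.50, unadjusted p = 0.0609, adjusted p = 0.987 by edgeR), and without M151 it was 0.36 (unadjusted p = 0.00272, adjusted p = 0.967). M151 was also the only βIgf1r mouse with over 1000 Xist counts. The fit without it thus sets βIgf1r mice low in Xist against mostly Xist-high βIgf1rKD mice.

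Ctsl (chr13:64359337-64370890, minus strand), a cysteine protease, was at 139, 136, 159.6 and 154 CPM in βIgf1r and 164, 144.9, 222 and 158 CPM in βIgf1rKD mice (log2 fold change 0.23, SE 0.14). Ctsb (chr14:63122462-63145923, plus strand), another cysteine protease, was at 202, 224, 203 and 209 CPM in βIgf1r and 238, 193, 287 and 246 CPM in βIgf1rKD mice (log2 fold change 0.20, SE 0.12). In both genes M149 stood above the other 7 mice and M146 lay inside or under the βIgf1r range. Ctsd (chr7:142375911-142388038, minus strand) was at 296, 280.4, 278 and 304 CPM in βIgf1r and 295, 253, 384 and 320.0 CPM in βIgf1rKD mice (log2 fold change 0.11, SE 0.13). Again M149 was highest and M146 lowest of the 8. For Ctsa, the protective protein of the β-galactosidase complex, the log2 fold change was 0.12 (SE 0.083), and for the tripeptidyl peptidase Tpp1 it was 0.064 (SE 0.15).

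M149 was the highest of the 8 mice for 5 of the 6 peptidases, and M150 for the sixth, Ctsz. The same mouse had the largest share of macrophage markers, 0.0291% of its counts against 0.0137% to 0.0258% in the other mice. It also had the largest share of acinar markers, 20.8%. Its share of fibroblast and stellate markers was the largest too, 0.02355% against 0.00377% to 0.0141% in the other mice. For duct markers the largest share was that of M146. Macrophages are rich in lysosomes and cathepsins. Of the 16 macrophage markers 15 had a log2 fold change above 0, with a median of 0.47. Of the 16, 5 (C1qb, C1qc, Fcgr1, Itgam and Tyrobp) had an unadjusted p under 0.05, against 4.12% of all genes tested. None of the 16 was at 0, and Csf1r, the receptor that macrophages need for survival, was at 11.99 ± 1.37 CPM in βIgf1r and 15.3 ± 6.25 CPM in βIgf1rKD islets (SD, n = 4). Their summed share of counts was 0.0150% to 0.0258% in βIgf1r and 0.0137% to 0.0291% in βIgf1rKD mice, ranges that overlap. With a macrophage marker score as covariate the log2 fold change of Ctsb was 0.035, that of Ctsl 0.045 and that of Ctsz 0.14. Without M149 the 3 values were 0.10, 0.078 and 0.22. Without M146 those of Ctsb and Ctsz were 0.29 and 0.29 (unadjusted p = 0.0193 and unadjusted p = 0.0366, adjusted p = 0.807 for each by edgeR). With Xist as a covariate the log2 fold change of Ctsl was 0.34 (unadjusted p = 0.00843, adjusted p = 0.657 by edgeR). That of Ctsa was then 0.18 (unadjusted p = 0.0452, adjusted p = 0.662 by edgeR). No other member had an unadjusted p under 0.05 in that fit. With an acinar marker score as covariate 0 members had an unadjusted p under 0.05 by edgeR. The part of macrophage RNA in these values was not tested beyond the fits above. That of acinar RNA was not tested beyond the acinar covariate, and that of other cell types was not tested.

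The glycosidases include Glb1 (ENSMUSG00000045594, chr9:114401076-114474898, plus strand). It was at 32.6, 30.8, 31.9 and 32.5 CPM in βIgf1r and 35.9, 34.03, 31.3 and 34.5 CPM in βIgf1rKD mice. M145, M146 and M150 lay above every βIgf1r mouse, and M149 inside their range. The means were 31.96 ± 0.795 and 33.9 ± 1.90 CPM (SD, n = 4), and the log2 fold change was 0.086 (SE 0.069, 95% interval -0.068 to 0.24, unadjusted p = 0.24, adjusted p = 0.987 by edgeR). On log2 CPM the difference was 0.084 (exact permutation test, two-sided, p = 0.114). Without M149, the βIgf1rKD mouse inside the βIgf1r range, it was 0.12, with an exact permutation p of 0.0286. That p is the smallest that 4 against 3 mice can give. It follows from the order of the mice given above, so it adds no support. M149 was also the βIgf1rKD mouse low in Xist. With Xist as a covariate the log2 fold change of Glb1 was 0.065 (unadjusted p = 0.424 by edgeR). By library totals without TMM the log2 fold change of Glb1 was -0.11. Enzyme activity and protein were not measured in these data.

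Ratios within a library do not depend on scaling. The log2 ratio of Glb1 to Ctsa, its partner in the lysosomal multienzyme complex, was -1.18 ± 0.045 in βIgf1r and -1.20 ± 0.20 in βIgf1rKD islets (difference -0.028, exact permutation p = 1, adjusted p = 1). In βIgf1r mice it was -1.24, -1.14, -1.15 and -1.18, and in βIgf1rKD mice -1.11, -1.10, -1.51 and -1.09, so that M149 stood far below the other 7. The log2 ratio of Glb1 to Lamp1 was -4.28 ± 0.078 and -4.22 ± 0.084 (difference 0.063, exact permutation p = 0.314, adjusted p = 0.6). For neither ratio did the groups separate.

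Of the 8 glycosidases 7 had a log2 fold change above 0, with a median of 0.088, while by library totals none did. Gusb (chr5:129989011-130003049, minus strand), β-glucuronidase, had the largest difference and was at 52.1, 45.3, 47.2 and 48.4 CPM in βIgf1r and 52.7, 50.3, 57.4 and 48.1 CPM in βIgf1rKD mice. M145 and M149 lay above every βIgf1r mouse and M146 and M150 among them (log2 fold change 0.11, SE 0.078, unadjusted p = 0.19). Hexa (chr9:59539540-59565109, plus strand), whose loss causes Tay-Sachs disease and which led the group in TPM by the longest but not by the mean transcript length, was at 189, 178, 152.9 and 189 CPM in βIgf1r and 202, 187, 168 and 203 CPM in βIgf1rKD mice (log2 fold change 0.10, SE 0.10). M145 and M150 lay above all βIgf1r mice and the other mice intermixed. The others were the fucosidase Fuca1 at 0.094, the sialidase Neu1 at 0.089, the α-mannosidase Man2b1 at 0.078, the glycogen-degrading Gaa at 0.068 and the α-galactosidase Gla at -0.049 on the log2 scale.

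In sphingolipid breakdown, 3 members had a log2 fold change above 0 and 2 below. Psap (chr10:60277627-60302597, plus strand) was at 1182, 1137, 1272 and 1070.2 CPM in βIgf1r and 1172, 1450.0, 1121 and 1179 CPM in βIgf1rKD mice (log2 fold change 0.079, SE 0.14). The higher βIgf1rKD mean came from M146, since the other 3 mice lay inside the βIgf1r range. Asah1 (chr8:41340197-41374773, minus strand), acid ceramidase, was at 203, 181, 156 and 204 CPM in βIgf1r and 177, 166, 158 and 182 CPM in βIgf1rKD mice. All βIgf1rKD values lay inside the range of the βIgf1r mice, and the log2 fold change was -0.12 (SE 0.11, unadjusted p = 0.275). Arsa, which removes sulfate from sulfatide, was at 0.092, the sphingomyelinase Smpd1 at 0.024 and the galactosylceramidase Galc at -0.067 on the log2 scale.

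Of the cholesterol and lipid group, Lipa (chr19:34492318-34527474, minus strand), which hydrolyses cholesteryl esters and triglycerides, was at 10.9, 11.97, 8.22 and 11.4 CPM in βIgf1r and 10.9, 7.64, 13.9 and 11.9 CPM in βIgf1rKD mice. Each group had 1 low mouse, M152 and M146 (log2 fold change 0.063, SE 0.19). Npc2 (chr12:84754562-84773152, minus strand), which hands cholesterol to Npc1, was at 139.6, 150.01, 140.01 and 144.7 CPM in βIgf1r and 152.99, 154, 136 and 154 CPM in βIgf1rKD mice (log2 fold change 0.058, SE 0.077). Here 3 βIgf1rKD mice lay above and M149 below every βIgf1r mouse. The palmitoyl thioesterase Ppt1 had a log2 fold change of -0.034.

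Of the sulfatases, Ids (chrX:70343069-70365084, minus strand), which acts on heparan and dermatan sulfate, was at 295, 268, 196 and 308 CPM in βIgf1r and 271, 207, 222 and 254 CPM in βIgf1rKD mice. It had the lowest log2 fold change of the set, -0.16 (SE 0.15, 95% interval -0.50 to 0.19, unadjusted p = 0.33). All βIgf1rKD values lay between those of M152 and M148. Without M152 the log2 fold change was -0.28 (unadjusted p = 0.0490, adjusted p = 0.669 by edgeR). For Sgsh, the heparan N-sulfatase, it was 0.047.

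M152 of the βIgf1r group and M146 of the βIgf1rKD group moved together across roles. They were the lowest pair of the 8 mice for 9 members (Lamp1, Lamp2, Mcoln1, Npc1, Ctsd, Tpp1, Lipa, Ppt1 and Ids) and the highest pair for 3 (Gaa, Neu1 and Psap), which makes 12 of 34 or 35.3%. Over all genes tested this pair was at one end for 24.2%, so that the likeness was not limited to lysosomal genes. The next pair, M151 and M149, was at one end for 6 members (17.65%), beside 6.93% of all genes tested. Without M152 and M146, a setting chosen after the data were seen, 22 of 34 members had a log2 fold change above 0 with a median of 0.040. The unadjusted p-values by edgeR were then under 0.05 for Ctsl (log2 fold change 0.34, unadjusted p = 0.0473) and Ctsb (0.28, unadjusted p = 0.0330) but not for Tfe3 (0.21, unadjusted p = 0.0694).

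**Figure D5:**
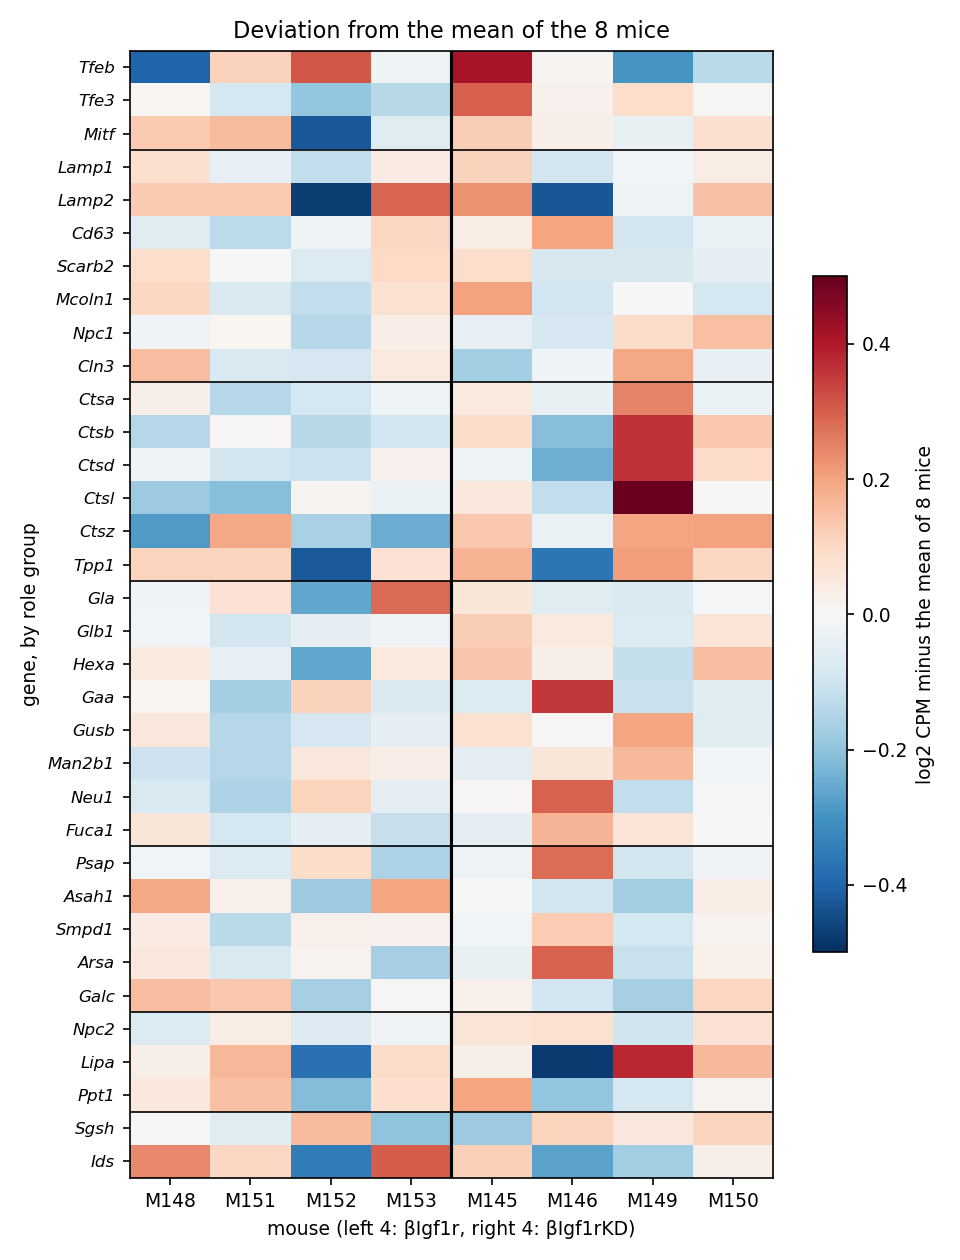
Log2 CPM of each lysosomal gene in each mouse minus its mean over the 8 mice, with βIgf1r mice to the left and βIgf1rKD mice to the right of the black line and roles divided by thin lines. Blue is below and red above the mean, from -0.48 to 0.49. M152 and M146 share low values of Lamp2, Tpp1, Lipa and Ids across the groups, and M149 is high in the cathepsins.

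Further genes of the pathway were taken from lists written by function, also with earlier results of these data known. Of 19 tested V-ATPase subunits, which acidify the lysosome, 7 had a log2 fold change above 0 and 12 below, with a median of -0.022, and 0 had an unadjusted p under 0.05. Of 20 genes that sort enzymes to lysosomes the median was -0.013 and of 27 genes of nutrient sensing at the lysosome -0.0075, again with 0 at an unadjusted p under 0.05. Of 34 further hydrolases 24 were above 0, with a median of 0.057, and 1 had an unadjusted p under 0.05. Of 23 further membrane proteins 14 were above 0, with a median of 0.055, and 1 had an unadjusted p under 0.05. Among all genes tested 4.12% reached that threshold. No gene of these lists had an adjusted p under 0.05 by edgeR.

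Sidt2, a lysosomal membrane protein linked to transport of nucleic acids into lysosomes, was at 29.1, 27.2, 34.8 and 28.4 CPM in βIgf1r and 39.8, 37.7, 44.8 and 33.9 CPM in βIgf1rKD mice. Only M150 fell below the highest βIgf1r mouse, M152. The means were 29.9 ± 3.35 and 39.1 ± 4.54 CPM (SD, n = 4), and the log2 fold change was 0.39 (SE 0.11, unadjusted p = 0.00563, adjusted p = 0.987 by edgeR). With each mouse left out in turn it ranged from 0.31 to 0.47, with a largest unadjusted p = 0.0197 by edgeR. By library totals it was 0.19 (unadjusted p = 0.367).

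Ctss, cathepsin S, is a protease of macrophages and other antigen-presenting cells. It was at 27.8, 39.6, 36.3 and 31.3 CPM in βIgf1r and 38.6, 39.6, 50.2 and 46.2 CPM in βIgf1rKD mice. M149 and M150 lay above every βIgf1r mouse (log2 fold change 0.37, SE 0.13, unadjusted p = 0.0167, adjusted p = 0.987 by edgeR). With the macrophage score as covariate it was 0.22 (unadjusted p = 0.0823 by edgeR), and by library totals 0.17 (unadjusted p = 0.443). A related protease, Ctsc, was at 48.2 CPM in M149 and at 7.64 to 17.4 CPM in the other mice. Clcn7, the lysosomal chloride exchanger, was the only gene of these lists whose groups did not overlap, beside 2.22% of all genes tested. It was at 28.3 ± 1.23 CPM in βIgf1r and 31.0 ± 1.28 CPM in βIgf1rKD islets (SD, n = 4, log2 fold change 0.13, unadjusted p = 0.0877 by edgeR). Ctsc and Clcn7 were named after their values were seen.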

How the data were processed

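RNA-seq of islets from 4 βIgf1r and 4 βIgf1rKD mice was analysed, with groups and mouse numbers from the labels. Per the labels, TruSeq stranded mRNA libraries were made, and the submitters' processing notes name fastp, kallisto and GRCm38, without versions. The authors deposited estimated counts per Ensembl gene, not scaled between mice. Of 53012 identifiers 51906 were matched to a symbol. Counts were rounded to whole numbers, filtered with filterByExpr (minimum count 10, minimum total 15), TMM-scaled and tested with edgeR 4.0.16 in R 4.3.3, with Benjamini-Hochberg adjustment over 15474 genes. SE is the fold change over the root of the F statistic, and log2 CPM used a prior count of 2. Exact permutation tests used the 70 assignments of mice, whose smallest p is 0.0286. TPM used transcript lengths of GENCODE M21, the source of gene coordinates on GRCm38, and promoters were RefSeq windows.

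Alternatives were RLE factors, DESeq2 1.42.0, limma-voom (limma 3.58.1), other filters, acinar markers left out, acinar, macrophage and Xist covariates and each mouse left out. Library totals without TMM, and leaving out M152 and M146, were added after the data were seen. The members and lists were chosen with earlier results of these data known. Named with all values were the MiT/TFE factors, Glb1, members at an unadjusted p under 0.05 or without overlap, the most abundant and the most different member of each role, and list genes at an unadjusted p under 0.05. The scripts were tested on simulated data. A kallisto count divides reads between transcripts, so genes with similar copies are less certain, and counting error, which was not separated from the spread between mice, is largest for the members with the fewest counts (Tfeb, at least 87, and Mitf, at least 133, in a mouse).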

Additional observations from a re-analysis of the deposited data

Results flagged for a closer look

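In 5 of the 78 groups of 4 mice looked at, over the members, the ratios and the named list genes, 1 mouse lay apart from the other 3 by Dixon's 95% criterion, which chance gives about 1 time in 20, or 3.9 times here. Tpp1 was at 5.22 log2 CPM in M152, against 5.71 to 5.75 in the other βIgf1r mice, and without M152 its log2 fold change was -0.050 instead of 0.064. Gaa was at 8.21 log2 CPM in M146, against 7.74 to 7.79 in the other βIgf1rKD mice, and without M146 its log2 fold change was -0.054 instead of 0.068. Smpd1 was at 6.17 log2 CPM in M151, against 6.32 to 6.34, and without M151 its log2 fold change was -0.015 instead of 0.024. Npc2 was at 7.09 log2 CPM in M149, against 7.26 to 7.27, and without M149 its log2 fold change was 0.099 instead of 0.058. The log2 ratio of Glb1 to Ctsa was -1.51 in M149, against -1.11 to -1.09 in the other βIgf1rKD mice. Why these mice lay apart was not tested.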

How the results depend on the processing

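No member had an adjusted p under 0.05 under any alternative. With library totals in place of TMM factors, 2 members had a log2 fold change above 0 (median -0.14), 0 members and 0 further membrane proteins had an unadjusted p under 0.05, 1 gene of all had an adjusted p under 0.05, Tfe3 turned to -0.012, and 23 members changed sign. Under the other alternatives the members' median stayed between 0.040 and 0.070 and 21 to 27 of them were above 0. Sign changed for 29 of 34 members in at least 1 alternative, and 6 had an unadjusted p under 0.05 in at least 1 setting.

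Of all genes, 637 had an unadjusted p under 0.05, beside 1098 without a filter, 388 with the acinar covariate, 1143 with Xist, 1212 without M152 and M146, and 383 to 1114 with a mouse left out. An adjusted p under 0.05 was reached by 8 genes with DESeq2, 1 with limma-voom and 3 without M152 and M146. Of the members, 0 had an unadjusted p under 0.05 with limma-voom, the acinar or the macrophage covariate, 2 with Xist or without M152 and M146, and 0 to 3 with a mouse left out (3 without M146, and 0 without M153, M145 or M149). Of the V-ATPase list it was 1 without a filter and 1 with Xist. Of the further hydrolases it was 2 without a filter, 0 with the acinar covariate, 4 with Xist or without M152 and M146, and 1 to 3 with a mouse left out. Of the further membrane proteins it was 2 with the acinar covariate or without M152 and M146, and 1 to 2 with a mouse left out. Of the sorting list it was 1 without M152 and M146 and 0 to 1 with a mouse left out, and of nutrient sensing 1 with the macrophage covariate. The exact difference of Glb1 ranged from 0.057 to 0.12 with a mouse left out. The cause of these shifts was not tested. No paired analysis was possible because the groups share no mouse number.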
